A study of Homo sapiens with 6 samples.

Results

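The immediate-early genes considered here are 10 genes fixed by name: FOS, FOSL1, JUN, JUNB, EGR1, ATF3, IER2, IER3, DUSP1 and KLF6. They were chosen with earlier results of these data known. All 10 were found among the 19871 gene symbols of the deposited mRNA tables, where they have 39 transcripts, and all 10 passed the filter on low counts in each comparison. Strand-specific RNA-seq libraries of HCT116, an established colorectal cancer cell line, were made in 3 groups of 2 libraries each. NC is the negative control. The GAS5 group was described by the paper as overexpressing GAS5, a long non-coding RNA, and the siYAP group received siRNA against YAP, the coactivator that drives TEAD target genes. The labels name transfection of a GAS5 plasmid or a YAP siRNA, but they file NC, GAS5 and siYAP all under siRNA. What the NC cells received, which YAP siRNA was used, how long after transfection the cells were harvested for sequencing and whether they were deprived of serum are not stated in the sources used here. The labels give McCoy's 5a medium and the paper's methods an RPMI medium, both with fetal bovine serum.

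Immediate-early genes are the first genes transcribed when a growth factor, a stress or a cytokine reaches a cell, and they need no new protein synthesis. ERK, JNK and p38 kinases switch them on through factors already bound at their promoters, such as SRF with its ternary complex partners and CREB. The mRNAs are short-lived, and many code for transcription factors: Fos and Jun proteins pair as AP-1 dimers, while EGR1 binds GC-rich sites. In epithelial cells this response follows mitogens and stress, and in culture also a change of medium.

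In these data, JUN mRNA was 6.24-fold, EGR1 3.06-fold, ATF3 2.59-fold and FOS 2.18-fold higher with GAS5 than in NC. In siYAP the same 4 genes were at 1.61-fold, 1.64-fold, 0.937-fold and 1.42-fold of NC. KLF6 differed little in either group, and IER3 was lower than in NC in the GAS5 group.

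Each deposited value is 1 mean per group as the authors computed it, so no spread between libraries, no SD and no test across libraries can be given for any value below. Counts were summed over the transcripts of a gene, scaled between groups by TMM (trimmed mean of M-values), and compared as a log2 fold change with a prior count of 2. A gene was called higher or lower at 2-fold or more, which is a rule of size and not a test. Brackets hold 95% exact intervals computed from the counts behind the mean of 2 libraries. These intervals cover counting error only. GAS5 and siYAP are compared with the same NC means, so an error in an NC mean would move both fold changes of a gene in the same direction.

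The depth was 27206123 mean counts in NC, 26298036 in siYAP and 25521577 in GAS5. YAP1 had a mean count of 3480 in NC, 1444 in siYAP and 2679 in GAS5, with a log2 fold change of -1.18 [-1.25, -1.12] in siYAP, in the direction of its label. GAS5 itself is not analysed here. Of 8 colorectal epithelial markers, 7 had at least 260 counts in every group, and CEACAM5 was at 0 in NC and GAS5. Of 3 leukocyte markers, PTPRC was at 0 in all groups and CD3E had at most 1 count, while CD68 had 202.5 counts in NC, 203 in siYAP and 279.5 in GAS5 (log2 fold change 0.58 in GAS5). Of 3 fibroblast markers, DCN was at 0 and COL1A2 had at most 1 count, while COL1A1 had 378.5 counts in NC, 540 in siYAP and 556 in GAS5 (0.60 in siYAP and 0.67 in GAS5). Of 3 endothelial markers, PECAM1 had at most 6 counts and CDH5 at most 2, while VWF had 31 counts in NC, 47 in siYAP and 27.5 in GAS5. Summed over each list, the leukocyte markers had 4.41 FPKM in NC, 4.22 in siYAP and 5.92 in GAS5, and the fibroblast markers 2.20, 2.96 and 3.34. In the same order, the endothelial markers had 0.165, 0.225 and 0.175. CD68 and COL1A1 were thus higher in the GAS5 group together with most of the members, and their part in the results was not tested.

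The promoters of the members were read from RefSeq (GRCh38.p14), as windows from 250 bases before to 50 bases after a start site, and 9 windows of 8 members matched. FOSL1 and IER3 had no entry. The windows of EGR1, FOS and DUSP1 and a stretch of the JUN window are shown, because these genes belonged to the 6 members with the highest log2 fold change in GAS5 and because each window lies within 500 bases of the start of transcripts that carried most of the gene's counts. Bases in capitals are matches to the motifs searched on both strands: the CArG box bound by SRF, the TATA motif TATAAA and the CRE-type motif TGACNTCA, which includes TGACGTCA.
JUN, chr1:58784096-58784125, minus strand: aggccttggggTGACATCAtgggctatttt
EGR1, chr5:138465229-138465528, plus strand: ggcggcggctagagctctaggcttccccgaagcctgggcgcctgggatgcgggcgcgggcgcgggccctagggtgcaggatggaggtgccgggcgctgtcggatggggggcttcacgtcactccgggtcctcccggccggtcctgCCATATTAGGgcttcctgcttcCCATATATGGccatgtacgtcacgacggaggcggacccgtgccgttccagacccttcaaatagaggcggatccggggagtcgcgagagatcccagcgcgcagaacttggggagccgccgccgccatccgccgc
FOS, chr14:75278578-75278877, plus strand: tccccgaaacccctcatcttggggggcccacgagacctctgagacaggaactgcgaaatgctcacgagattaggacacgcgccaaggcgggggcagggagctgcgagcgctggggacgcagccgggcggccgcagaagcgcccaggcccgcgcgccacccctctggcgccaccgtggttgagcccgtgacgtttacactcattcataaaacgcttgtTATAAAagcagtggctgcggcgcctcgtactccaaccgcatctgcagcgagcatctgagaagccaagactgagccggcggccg
DUSP1, chr5:172771146-172771445, minus strand: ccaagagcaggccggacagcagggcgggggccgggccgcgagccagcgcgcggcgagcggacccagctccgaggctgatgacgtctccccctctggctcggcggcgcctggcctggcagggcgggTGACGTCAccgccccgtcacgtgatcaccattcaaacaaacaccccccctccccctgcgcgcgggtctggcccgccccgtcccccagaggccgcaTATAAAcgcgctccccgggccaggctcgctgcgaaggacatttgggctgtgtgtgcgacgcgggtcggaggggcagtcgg
EGR1 held 2 CArG boxes, whose first bases lie at -105 and -83 from the RefSeq start. Among all 35116 promoter windows, 1.29% held a CArG box, and no other member window did. TATAAA was found at -33 in FOS, at -31 in JUNB and at -30 in DUSP1, as well as in 1 window of ATF3, against 11.5% of all windows. TGACGTCA, the full CRE, was present in DUSP1 at -125 and in 1.85% of all windows. The wider form TGACNTCA was added after the members' promoters had been read. It occurred in JUN at -67, in DUSP1 at -125, in KLF6 at -172 and in 1 window of ATF3, and in 7.72% of all windows. GGGCGG, the core of Sp1 sites, was found in 6 members and in 45.0% of all windows. No member window held TGANTCA of AP-1 (7.71% of all), CCGGAAGT of Ets factors (4.14%), GCGTGGGCG of EGR factors (0.795%) or GGAATG of TEAD factors (14.0%). A match describes letters in this window and shows no binding. Sites outside the windows were not searched, so a motif missing here can lie further upstream.

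The RefSeq start of JUN lies 280 bases downstream of the start of its Ensembl transcript, so its window falls inside that transcript and only 30 bases around the motif are printed. The RefSeq start of FOS lies 54 bases downstream of that of its main transcript. The ATF3 windows are not printed, because neither lies at the start of the transcript that carried most ATF3 counts: their starts lie at -43263 and 6348 bases from its start and account for 0% and 9.90% of the NC count.

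In NC, the 10 genes covered a wide range of expression per transcript length. IER3 was highest at 638 FPKM (fragments scaled to transcript length and library size) and ranked 119 of the 19871 symbols. IER2 (57.7 FPKM) and JUNB (54.6 FPKM) followed. FOSL1 was at 21.8 FPKM, KLF6 at 18.3 and ATF3 at 18.2, and EGR1 was at 11.6. FOS at 6.74 FPKM, DUSP1 at 4.49 and JUN at 3.99 were the lowest. KLF6 and ATF3 were neighbours in this order that differed by less than 0.1 FPKM, and with no spread between libraries it cannot be said which other neighbours differ. In GAS5 the order changed: ATF3 reached 45.0 FPKM and EGR1 34.6, both above KLF6 at 18.5, and JUN reached 24.4 FPKM and moved from rank 9492 to rank 3230. IER3 was lower in GAS5 at 499.9 FPKM, and still the highest. In siYAP, IER3 was at 753 FPKM, IER2 at 80.2, JUNB at 69.6 and FOSL1 at 33.5. EGR1 at 18.4 FPKM and KLF6 at 18.1 were next, then ATF3 at 16.8, FOS at 9.35, JUN at 6.28 (rank 7998) and DUSP1 at 5.79.

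**Figure D1:**
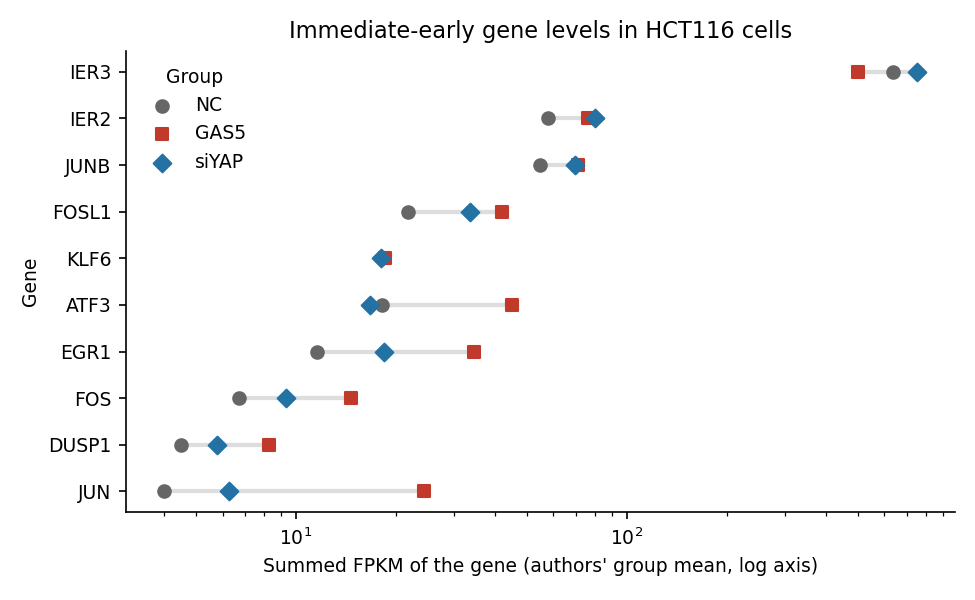
Summed FPKM of the 10 immediate-early genes on a log axis, with 1 point per gene and group (NC grey circles, GAS5 red squares, siYAP blue diamonds), each the authors' mean of 2 libraries with no error available. JUN is at 3.99 in NC and 24.4 in GAS5, whereas the KLF6 points lie between 18.1 and 18.5.

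In GAS5 against NC, 4 of the 10 members were called higher (JUN, EGR1, ATF3 and FOS) and 0 were called lower. Among the 13449 genes tested, 2.51% were called higher and 0.996% lower. Genes with low counts passed the limit more often, so the share was also taken among the 10273 genes whose mean count over the groups was 200 or more, a limit that all 10 members exceed and that was chosen after seeing the data. Of those genes, 0.506% were called higher. The members were chosen with earlier results of these data known, so the shares in this paragraph describe the set and test nothing. Of the members, 9 had a log2 fold change above 0, against 50.3% of all genes tested, and their median was 0.94 against 0.00 for all genes. In siYAP against NC, 0 of the 10 members were called in either direction, where 1.18% of 13357 genes tested were called higher and 1.34% lower, and 0.107% were called higher among genes with at least 200 counts. There, 9 members were above 0, against 50.1% of all genes, with a median of 0.46 against 0.00. These 9 include KLF6 at 0.02 [-0.04, 0.08], whose interval includes 0. The siYAP shift was not particular to the members. Of the 7 colorectal epithelial markers tested, 6 were above 0 in siYAP, with a median of 0.46. In GAS5, 3 of these 7 markers were above 0, with a median of -0.07. In bulk RNA, a change in the number of cells expressing a gene and a change in RNA per cell cannot be told apart.

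**Figure D2:**
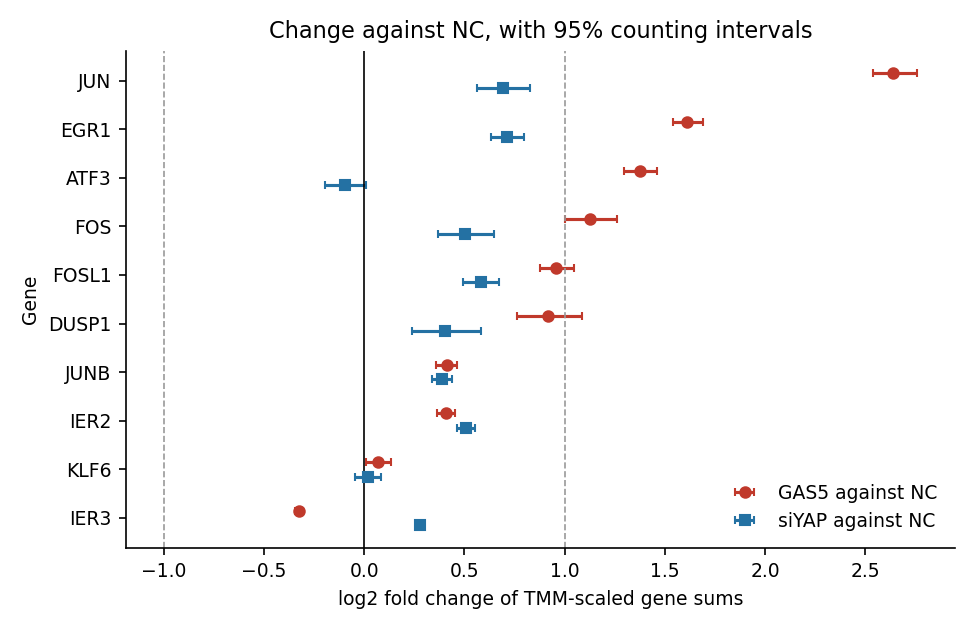
Log2 fold change of each immediate-early gene against NC after TMM scaling, in GAS5 (red circles) and siYAP (blue squares), with bars for 95% exact counting intervals and dashed lines at 2-fold. JUN, EGR1, ATF3 and FOS lie to the right of the 2-fold line in GAS5, and all 10 siYAP points lie between -0.09 and 0.71.

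JUN, the AP-1 subunit that gave the Jun family its name and a substrate of JNK, differed most from NC among the members in GAS5. Its mean count was 391 in NC, 595.5 in siYAP and 2255.5 in GAS5. GAS5 stood far above the other groups, at 6.24-fold over NC after scaling (log2 fold change 2.64 [2.54, 2.76]), which ranked 65 from the top of all genes tested. In siYAP JUN was 1.61-fold higher than in NC (0.69 [0.56, 0.83]). JUN is on the minus strand of chromosome 1 (GRCh38, 58780788 to 58784327), and its transcript ENST00000371222, a single exon of 3540 bases, held 99.2% of the JUN count in GAS5 and 100% in NC. All of the 50-base stretches of this transcript occur in no other annotated gene.

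JUNB, a Jun protein that activates transcription more weakly than JUN and can oppose it, differed less from NC. The mean count was 2755 in NC, 3396.5 in siYAP and 3375 in GAS5, so both treated groups were above NC and close to each other. The log2 fold change was 0.41 [0.36, 0.46] in GAS5 and 0.39 [0.34, 0.44] in siYAP. The gene (chromosome 19, 12791496 to 12793315) overlaps HOOK2 on the opposite strand, and 88.1% of its 50-base stretches are in no other gene.

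FOS, the short-lived partner of Jun proteins (chromosome 14, 75278774 to 75282230), had a mean count of 358.5 in NC, 480 in siYAP and 722.5 in GAS5. It was 2.18-fold higher in GAS5 (log2 fold change 1.13 [1.00, 1.26]) and 1.42-fold higher in siYAP (0.51 [0.37, 0.65]). FOSL1, or Fra-1, is a Fos protein without a strong activation domain that is often raised in carcinoma cells with active ERK. The gene is on chromosome 11 (65892049 to 65900573), and 96.4% of its 50-base stretches are in no other gene, the rest being shared with the pseudogene FOSL1P1. The FOSL1 mean count was 892 in NC, 1258 in siYAP and 1599 in GAS5, and its log2 fold change was 0.96 [0.88, 1.05] in GAS5 and 0.58 [0.49, 0.67] in siYAP. FOS was the called member nearest to the 2-fold limit, and FOSL1 at 1.94-fold and DUSP1 at 1.89-fold lay just under it. The intervals of FOS, FOSL1 and DUSP1 all reach the limit, so counting error alone does not place these genes on one side of it.

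EGR1, a zinc-finger factor driven by SRF and ternary complex factors, had a mean count of 1004 in NC, 1551 in siYAP and 2831.5 in GAS5. All of it came from 1 transcript (ENST00000239938, chromosome 5, 138465490 to 138469315). The level was 3.06-fold higher in GAS5 (log2 fold change 1.61 [1.54, 1.69]) and 1.64-fold higher in siYAP (0.71 [0.63, 0.80]). EGR1 had the largest log2 fold change of the members in siYAP, and JUN followed with an interval that overlaps that of EGR1.

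ATF3 is a stress-induced member of the ATF/CREB family that often represses its targets. It was the 1 member below 0 in siYAP: the mean count was 830 in NC, 732 in siYAP and 1986 in GAS5. GAS5 was thus high, and siYAP lay slightly below NC. The log2 fold change was 1.38 [1.29, 1.46] in GAS5 and -0.09 [-0.20, 0.01] in siYAP, where the interval includes 0. ATF3 spans chromosome 1 from 212565334 to 212620777 and has 9 transcripts, 3 of them at 0 in every group. ENST00000341491 carried 88.6% of the count in NC and 90.3% in GAS5, and its mean count of 735 in NC compared with 1793 in GAS5 and 645 in siYAP. A shorter form, ENST00000613104, had 76.0 counts in NC, 69.0 in siYAP and 144 in GAS5.

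KLF6, a Kruppel-like zinc-finger factor that restrains growth in several epithelia (chromosome 10, 3775996 to 3785281), hardly differed between the groups. The mean count was 2071.5 in NC, 1977 in siYAP and 2002.5 in GAS5. After scaling, the log2 fold change was 0.07 [0.01, 0.13] in GAS5 and 0.02 [-0.04, 0.08] in siYAP. The siYAP value turned to -0.02 with total count scaling and to -0.01 with the ratio of summed FPKM, so it has no direction.

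IER2, a nuclear protein that responds to growth factors (chromosome 19, 13150415 to 13154908), had a mean count of 3420.5 in NC, 4583 in siYAP and 4180 in GAS5. Its log2 fold change was 0.41 [0.36, 0.45] in GAS5 and 0.51 [0.46, 0.55] in siYAP. IER3, or IEX-1 (chromosome 6, 30743199 to 30744554), modulates apoptosis and ERK signaling. IER3 was the single member lower in GAS5 than in NC after scaling: the mean count was 22041 in NC, 25134 in siYAP and 16220 in GAS5. The log2 fold change of IER3 was -0.32 [-0.34, -0.30] in GAS5 and 0.28 [0.26, 0.29] in siYAP, both under 2-fold. The genes overlap annotated antisense genes, AC011446.2 for IER2 and IER3-AS1 for IER3, and 58.2% and 73.9% of their 50-base stretches are in no other gene. The libraries keep strand, but whether the counting used it is not given in the sources used here, so a part of these counts could come from the antisense genes.

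DUSP1, the nuclear phosphatase that inactivates p38, JNK and ERK (chromosome 5, 172768090 to 172771195), had the lowest counts of the 10. Its mean count was 250.5 in NC, 313 in siYAP and 437.5 in GAS5. DUSP1 had a log2 fold change of 0.92 [0.76, 1.08] in GAS5 and 0.41 [0.24, 0.58] in siYAP.

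**Figure D3:**
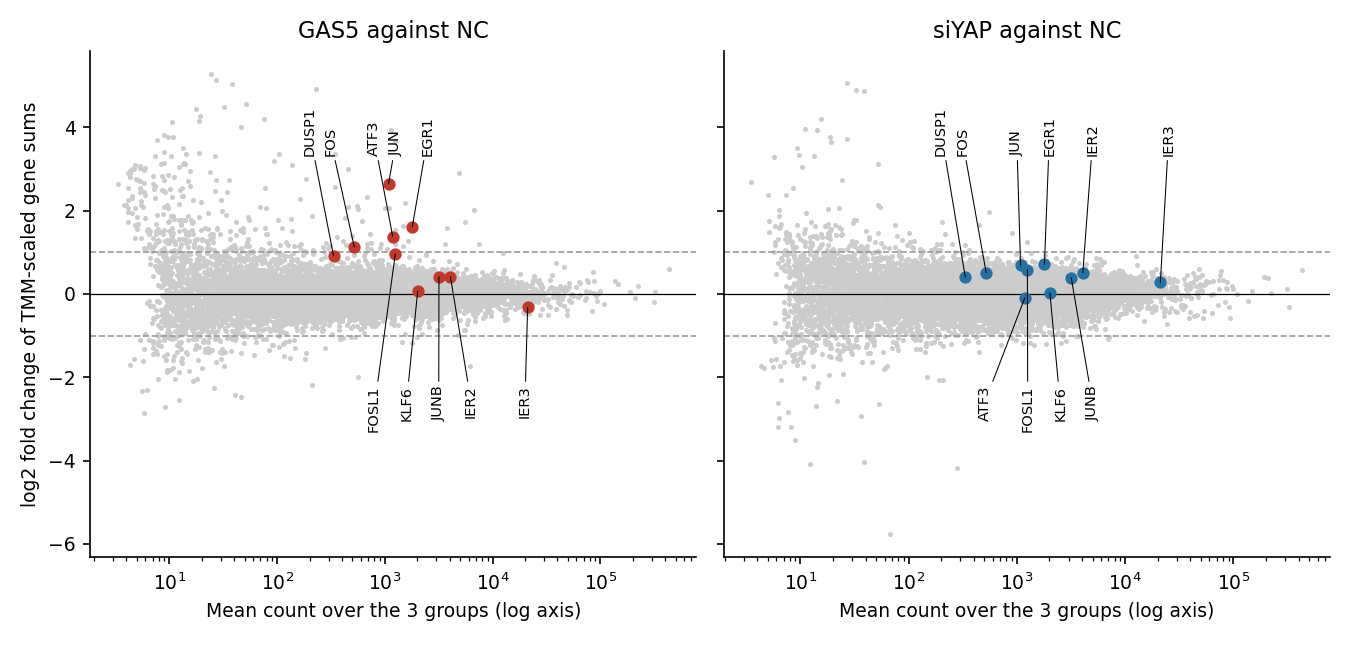
Log2 fold change against NC plotted over the mean count of the 3 groups (log axis) for every gene tested (grey) and for the 10 immediate-early genes (coloured and named), with dashed lines at 2-fold. JUN stands at 2.64 in the GAS5 panel and at 0.69 in the siYAP panel, and no named gene passes a dashed line in the siYAP panel.

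A direct comparison of GAS5 with siYAP does not use the NC means. In it, JUN was 3.83-fold higher in GAS5 (log2 fold change 1.94 [1.85, 2.03]) and ATF3 was 2.74-fold higher (1.46 [1.37, 1.55]). These 2 members were called higher and 0 were called lower, where 2.96% of the 13461 genes tested were called higher and 2.11% lower. EGR1 differed by 0.89 [0.82, 0.95], FOS by 0.61 [0.49, 0.73], DUSP1 by 0.50 [0.35, 0.65] and FOSL1 by 0.36 [0.29, 0.44], all higher in GAS5 and under 2-fold. JUNB (0.01 [-0.04, 0.06]) and KLF6 (0.04 [-0.03, 0.10]) had intervals that include 0. IER2 (-0.11 [-0.16, -0.07]) and IER3 (-0.61 [-0.63, -0.59]) were lower in GAS5 than in siYAP. In all, 8 members were above 0, against 50.4% of all genes tested, and the median was 0.43 against 0.00.

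The make-up of the AP-1 subunits was followed per transcript length. Summed over JUN, JUNB and JUND, the Jun family had 103.5 FPKM in NC, 132 in siYAP and 145 in GAS5. JUN gave 3.85% of this sum in NC, 16.9% in GAS5 and 4.77% in siYAP. JUNB gave 52.7% in NC, 52.9% in siYAP and 49.0% in GAS5. JUND, the Jun protein present in resting cells, gave 43.4% in NC, 42.3% in siYAP and 34.1% in GAS5. JUNB thus remained the most abundant Jun mRNA in each group.

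Fos family mRNAs (FOS, FOSB, FOSL1 and FOSL2) summed to 40.8 FPKM in NC, 56.6 in siYAP and 70.9 in GAS5. FOSL1 was the largest share at 53.4% in NC, 59.1% in siYAP and 59.4% in GAS5. FOS held 16.5% in NC, 16.5% in siYAP and 20.8% in GAS5. The share of FOSL2, or Fra-2, was 26.4% in NC, 20.6% in siYAP and 15.4% in GAS5, while the mean count of FOSL2 was 1860 in NC, 1971 in siYAP and 1797 in GAS5. A share therefore moved with the other subunits even where a subunit's own count was nearly flat.

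**Figure D4:**
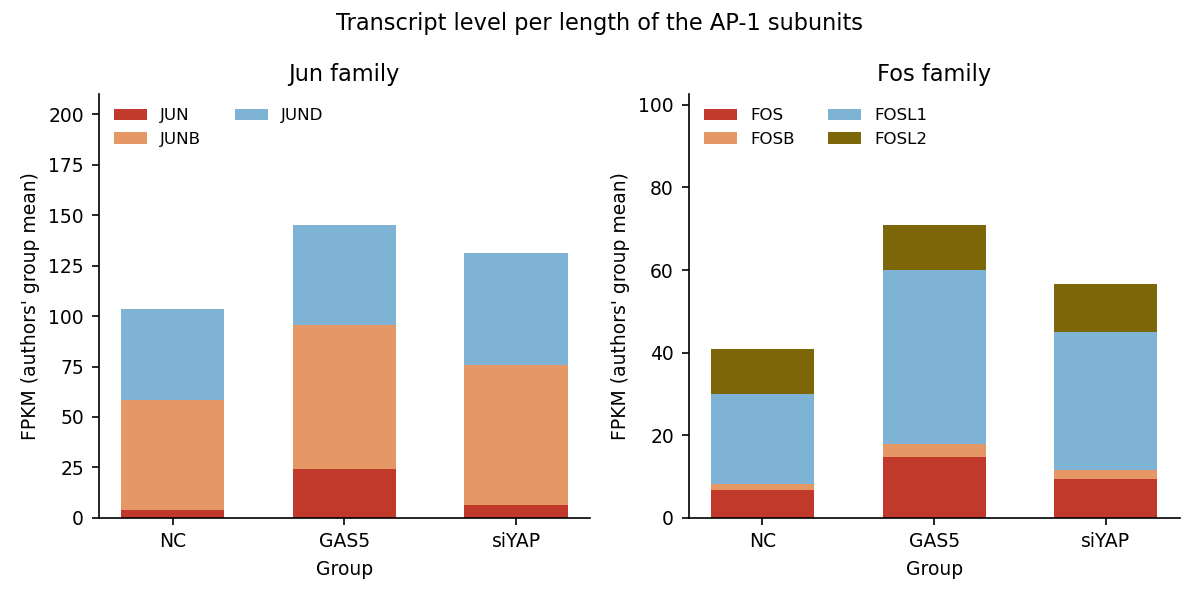
Stacked FPKM of the Jun family (left) and the Fos family (right) in NC, GAS5 and siYAP, each bar segment being the authors' mean of 1 gene with no error available. JUN takes 3.85% of the Jun bar in NC and 16.9% in GAS5, and FOSL1 is the tallest Fos segment in all 3 groups.

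Of the 39 transcripts, 19 had at least 50 counts in a group, 6 were at 0 in all groups and 5 had been assembled from the reads. FOS was mostly ENST00000303562 (268 counts in NC, 369 in siYAP and 511 in GAS5), with ENST00000555686 at 65.2 counts in NC, 90.0 in siYAP and 151 in GAS5. FOSL1 was mostly ENST00000312562, with 708 counts in NC, 954 in siYAP and 1226 in GAS5. In IER2, the minor transcript ENST00000587885 was listed at 0 in siYAP and had 8.07 counts in NC and 94.3 in GAS5, while the main transcript ENST00000292433 had 3121 in NC, 4230 in siYAP and 3806 in GAS5. How reads were divided between transcripts of 1 gene is an estimate of the authors' counting.

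Many immediate-early mRNAs carry AU-rich elements in the 3′ UTR, whose core is ATTTA and which mark an mRNA for decay. In the annotated 3′ UTR of the main transcripts (GENCODE 29), 9 of the 10 members held at least 1 ATTTA, against 66.7% of 12216 genes with counts and an annotated 3′ UTR. IER3 held 6 in 737 bases, FOS 5 in 806 bases and DUSP1 4 in 672 bases. JUN and ATF3 each held 3, KLF6 held 6 in 3543 bases, and IER2 held 0. At least 3 were present in 6 members and in 37.8% of all genes. EGR1, 3.06-fold higher in GAS5, held 1, and FOSL1 held 1 in 666 bases.

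Other subunits and relatives of AP-1 and ATF were examined as a list of 13 genes, of which 12 were tested. In GAS5, 2 were called higher and 0 lower, and the median was 0.13. Of all genes tested, 2.51% were called higher and 0.996% lower. BATF2, an interferon-inducible protein of the BATF family, had 66.5 counts in NC, 122 in siYAP and 306 in GAS5 (log2 fold change 2.29 [2.05, 2.60] in GAS5 and 0.94 [0.65, 1.28] in siYAP). FOSB, a close relative of FOS, had 124 counts in NC, 167 in siYAP and 237 in GAS5 (1.04 [0.83, 1.28] and 0.51 [0.27, 0.76]). In siYAP, 0 of the 12 were called, with a median of 0.23.

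Among 17 other early response genes, 16 were tested and 3 were called higher in GAS5, with a median of 0.16. The called genes, beside 2.51% of all genes tested there, are given next. They were EGR2 (25.5 counts in NC, 45 in siYAP and 90 in GAS5), EGR3 (36.5 in NC, 93.5 in siYAP and 104 in GAS5) and the nuclear receptor NR4A3 (28 in NC, 24.5 in siYAP and 59 in GAS5), the last named after its value was seen. The log2 fold change in GAS5 was 1.86 [1.48, 2.42] for EGR2, 1.58 [1.24, 2.03] for EGR3 and 1.14 [0.72, 1.68] for NR4A3. All 3 rest on few counts, at which genes passed the limit more often. In siYAP, EGR3 was the 1 gene called higher (1.39 [1.05, 1.85]), where 1.18% of all genes tested were. The median was 0.32, and NR4A1 followed EGR3 at 0.87 [0.75, 1.00]. MYC had a log2 fold change of -0.09 in GAS5 and 0.33 in siYAP.

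The listed mRNAs of the machinery that induces immediate-early genes stayed under 2-fold in both comparisons with NC. Of 10 genes for SRF, its ternary complex and MRTF partners and CREB factors, 0 were called in either comparison, with medians of -0.03 in GAS5 and -0.08 in siYAP. The largest of these differences were those of ELK4 in GAS5 (-0.33) and of MKL2, an SRF coactivator, in siYAP (-0.66). In the list of 17 Ras, Raf, ERK, JNK, p38 and RSK genes, 0 were called in either comparison, and the medians were 0.05 and 0.03. HRAS (0.41) and the kinase gene RPS6KA1 (0.37) differed most in GAS5, and MAP2K2 (0.48) and MAPK14, which encodes p38 alpha (-0.47), in siYAP. Kinase activity was not measured.

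The other MAPK phosphatases and the Sprouty and Spred inhibitors are induced by ERK or JNK and act back on them. Of 12 such genes, 1 was called higher in GAS5 and 0 lower, with a median of -0.09. Of all genes tested, 2.51% were called higher there. The called gene was DUSP8, a phosphatase of JNK and p38, with 223 counts in NC, 329.5 in siYAP and 533.5 in GAS5 (log2 fold change 1.37 [1.22, 1.54] in GAS5 and 0.65 [0.47, 0.83] in siYAP). In siYAP, 0 were called and the median was 0.19. DUSP5, an ERK phosphatase, had 5661.5 counts in NC, 9025 in siYAP and 4308 in GAS5, and was the 1 gene of the list called lower in GAS5 than in siYAP (-1.05). DUSP6, another phosphatase of ERK, was at -0.47 in GAS5 and 0.24 in siYAP. SPRY4 was at -0.19 and 0.63.

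Known targets and corepressors of AP-1 and EGR1 were listed as 12 genes, of which 11 were tested and 0 were called in either comparison. The median was 0.04 in GAS5 and 0.49 in siYAP. HBEGF, a ligand of the EGF receptor, was at 0.41 [0.26, 0.56] in GAS5 and 0.53 [0.38, 0.68] in siYAP. NAB2, the corepressor that EGR1 induces, was at -0.14 in GAS5 and 0.51 in siYAP. MMP1, a collagenase gene with a classical AP-1 site, was left out by the filter at 4 counts in NC, 1 in siYAP and 2 in GAS5. In the direct comparison, 0 of the 11 were higher in GAS5 than in siYAP, against 50.4% of all genes tested. Their median was -0.34, against 0.00 for all genes. This was not particular to the targets: 0 of the 7 colorectal epithelial markers tested were above 0, with a median of -0.33.

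Of 3 further lists, also chosen with earlier results of these data known, 1 was called as a whole in GAS5. All 10 of 10 interferon-stimulated genes were called higher there, with a median of 3.36 and a range of 1.55 to 4.93. Their summed FPKM was 106 in NC, 126 in siYAP and 875 in GAS5, and 0 were called in siYAP (median 0.15). Of 8 genes of the ATF4 stress programme, which is a known route to ATF3, 7 were tested, 0 were called and 0 were above 0 in GAS5, with a median of -0.63. TRIB3 was at -0.86 in GAS5 and 0.53 in siYAP, and CHAC1 at -0.81 and -0.14. Of the 7 YAP and TEAD genes, 2 were called higher in GAS5: CYR61, itself an early response gene, with 539.5 counts in NC, 621 in siYAP and 1058 in GAS5 (1.09 [0.98, 1.20]), and ANKRD1, on 4 counts in NC, 8.5 in siYAP and 18.5 in GAS5. In siYAP, YAP1 was the 1 gene of this list called, and it was lower. Of the 6 tested there, 3 were above 0. CYR61 was at 0.29 [0.17, 0.41] in siYAP. CTGF, a target gene of YAP in the paper, was at 0.16 [-0.16, 0.49] in siYAP and 0.72 [0.44, 1.03] in GAS5. By qRT-PCR and western blot, the paper reported less CTGF and CYR61 after YAP knockdown. It also reported less CTGF protein with GAS5 overexpression, in SW620 cells. In the RNA-seq of HCT116 cells, neither gene had a log2 fold change below 0 in either group. The part of these 3 lists in the immediate-early result was not tested.

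**Figure D5:**
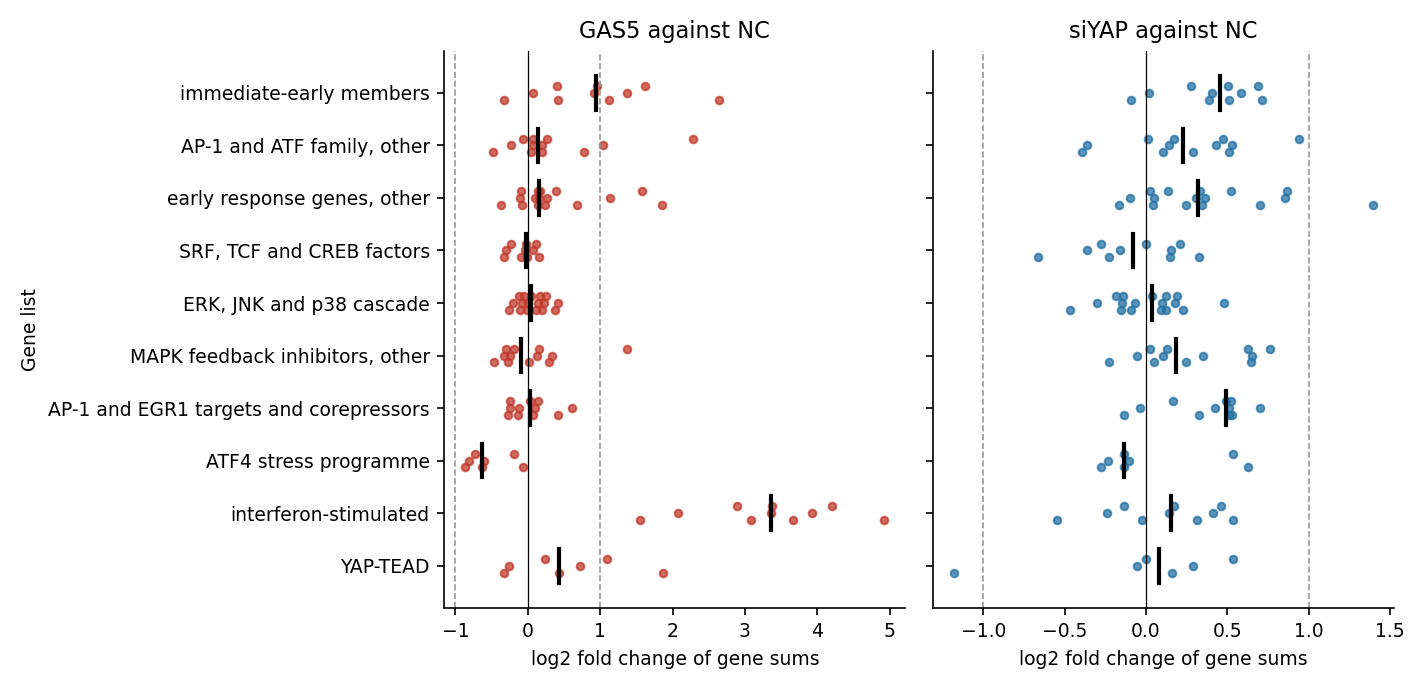
Log2 fold change against NC of each tested gene in the immediate-early set and in the 9 other lists, in GAS5 (left) and siYAP (right), with a black bar at the median of the list and dashed lines at 2-fold. The horizontal scales of the panels differ. In GAS5 the medians are 0.94 for the immediate-early genes, 3.36 for interferon-stimulated genes and -0.63 for the ATF4 stress programme.

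The genes nearest to the most changed members were found by the distance in the plane of the GAS5 and siYAP log2 fold changes, among 11907 genes with a mean of at least 50 counts. This likeness rests on the 3 group means alone, with NC in both axes. Nearest to JUN were OASL (distance 0.37, with 137 counts in NC, 199 in siYAP and 1025 in GAS5), BATF2 (0.43) and ISG15 (0.46). Nearest to EGR1 were CCT6 (0.21, with 46.8 counts in NC, 67.3 in siYAP and 120 in GAS5), DUSP8 (0.25) and MX1 (0.26). CCT6 is the symbol as deposited, and which human gene it stands for was not checked. OASL, ISG15 and MX1 are interferon-stimulated genes.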

How the data were processed

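RNA of HCT116 cells was sequenced in 3 groups (NC, GAS5 and siYAP) of 2 libraries, and groups follow the sample labels. The expected counts deposited by the authors are estimated counts per transcript, given as 1 mean per group. The FPKM deposited by the authors are fragments scaled to transcript length and library size, given in the same way, with a small value in place of 0 that was set back to 0 here. The deposited columns of log2 fold changes, p-values, FDR values and significance hold the authors' own comparisons and were not used. The submitters' processing notes name TopHat2 2.1.1. The counting tool, genome build and annotation are not given in the sources used here.

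Transcripts were joined by identifier and summed by symbol, as the siYAP table gives it. The 339 transcripts without a symbol (0.195 to 0.224% of counts) were left out of gene sums and library sizes. NC values were the same in both tables (0 differed). Of 6531 values above 0 in genes with 1 transcript, 81.7% were multiples of 0.5, as a mean of 2 whole counts would be. Genes with at least 10 counts in 1 group of a comparison were kept. TMM factors were taken on rounded sums with edgeR 4.0.16 in R 4.3.3, and other steps used scipy 1.17.1, pandas 2.3.3, numpy 2.4.6 and matplotlib 3.10.9 in Python 3.11.15. Intervals are 95% Clopper-Pearson intervals of a conditional binomial on the counts behind 2 libraries. PCR reads without molecular identifiers are not independent molecules, so the intervals cover counting error only. Only the log2 fold change step was tested on simulated data, for GAS5 against NC with the main settings. The simulated gene sums held counting error only.

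The edgeR quasi-likelihood test laid down for single libraries was not run, since the tables hold group means. The members and gene lists were chosen with earlier results of these data known. Genes named are the members, their transcripts with at least 50 counts, from each list the genes with at least 50 NC counts past 2-fold or otherwise the 2 that differed most, and the 3 genes nearest to the 2 most changed members. Other genes were named after their values were seen. The values of 1 gene that this rule names are not reported here. Alternatives were DESeq2 1.42.0 size factors, total counts, no filter, a prior count of 0.5, summed FPKM with 0.01 added, and Ensembl transcripts alone. Coordinates, 50-base stretches and 3′ UTRs come from GENCODE 29 (GRCh38), and promoters from RefSeq. Transcript identifiers of the tables were looked up there.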

Additional observations from a re-analysis of the deposited data

How the results depend on the processing

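JUN, EGR1, ATF3 and FOS were the 4 members past 2-fold in GAS5 under all 6 alternatives that could be computed, and 0 members passed in siYAP under any. All 24 counts and medians of members under an alternative stayed within 1.5 times the reported count or within the counting error, with medians of 0.91 to 0.94 in GAS5 and 0.42 to 0.46 in siYAP. Of 120 single-gene values under an alternative, 116 stayed inside the counting interval and 4 moved, all of IER3: with total count scaling it was -0.35 in GAS5 and 0.24 in siYAP, and with the ratio of summed FPKM it was -0.35 and 0.24. Scaling moved the median of all genes by under 0.1 (log2). The cause of the shifts was not tested. No paired analysis was possible because libraries were averaged before deposit. Nor were the DESeq2 Wald test, leaving out each replicate and the replicate block run, so a single library could carry any difference reported here. Depth limits DUSP1 most among the members, whose interval in GAS5 runs from 0.76 to 1.08.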

Other observations

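Set directly against siYAP, the 16 tested early response genes outside the 10 members were split: 8 were above 0 in GAS5, 1 was called higher and 0 lower, and the median log2 fold change was -0.02. Of all genes tested, 2.96% were called higher and 2.11% lower. The genes given below were picked after their values were seen. NR4A1, an orphan nuclear receptor, had 417 counts in NC, 719 in siYAP and 460 in GAS5. NR4A2 had 644 counts in NC, 872 in siYAP and 549.5 in GAS5. ZFP36L1, which binds AU-rich elements and promotes mRNA decay, had 4496 counts in NC, 6893 in siYAP and 3924.5 in GAS5. KLF4, a factor of differentiated colon epithelium, had 868.5 counts in NC, 1038.5 in siYAP and 620.5 in GAS5. The log2 fold change of GAS5 against siYAP was -0.62 for NR4A1, -0.65 for NR4A2, -0.79 for ZFP36L1 and -0.72 for KLF4, all under 2-fold. On the other side, NR4A3 was at 1.22, on few counts and the 1 gene called, and EGR2 was at 0.99, also on few counts. BTG2, an antiproliferative early gene, was at 0.53, with 1080.5 counts in NC, 1116.5 in siYAP and 1590.5 in GAS5.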
